A study of Mus musculus with 45 samples.

Results

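The machinery that carries cells from G1 into S phase was examined in mouse adipocytes through 10 genes: the CDK inhibitors Cdkn1a, Cdkn1b, Cdkn2a and Cdkn2c, the D-type cyclins Ccnd1, Ccnd2 and Ccnd3, their kinases Cdk4 and Cdk6, and the kinases' target Rb1. Every probe set of the array that carried one of these symbols alone was taken, which gave 27 of the 45037 probe sets. No measured value entered the choice of probe sets for these genes, but the genes were chosen with earlier results of these data known. Adipocytes came from the parametrial and periovarian fat of 45 female C57BL/6 mice with 1 array per mouse. D mice carried IR+/- IRS1+/- ApoE-/- (1 deleted allele each of the insulin receptor and of insulin receptor substrate 1, with no functional ApoE allele), and E mice carried ApoE-/- alone, so every mouse lacked ApoE and no wild-type mouse was measured. Mice began a Western (W) or chow (C) diet at 8 weeks of age and kept it for 8 or 16 weeks, to an age of 16 or 24 weeks. Named by genotype, diet and weeks, the groups held 7 (DC8), 5 (DW8), 5 (DC16), 9 (DW16), 6 (EW8), 5 (EC16) and 8 mice (EW16), and E mice had no chow group at 8 weeks. The deletions were germline alleles present in all cells, so a difference between D and E is not limited to the adipocyte.

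In G1, growth signals raise the D-type cyclins, which bind CDK4 and CDK6 and phosphorylate RB. Phosphorylated RB releases E2F factors, which switch on the genes of DNA replication. INK4 inhibitors (encoded by Cdkn2a and Cdkn2c) bind the kinases themselves, whereas CIP/KIP inhibitors (encoded by Cdkn1a and Cdkn1b) bind cyclin and kinase complexes. Mature adipocytes rarely divide, and several of these proteins also act in adipocyte differentiation and metabolism. Insulin signaling restrains the FOXO transcription factors, and Cdkn1b is among the genes known to respond to them.

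Values are the authors' log2 RMA values, in which 1 unit is a 2-fold difference in signal. A probe set was called at an adjusted p under 0.01 (limma, Benjamini-Hochberg over all 45037 probe sets), and differences are given on the log2 scale with their standard error (SE). Levels were compared only within a probe set. In bulk RNA, fewer cells of a type and less RNA per cell cannot be told apart.

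Several arrays stood apart from the rest. DW16 mice 1 to 7 and EW16 mice 1 to 3 had a narrower range of values, with a 95th percentile of 10.14 to 10.85 against 10.95 to 11.14 in 31 other arrays, and lay at the far end of the first principal component. EW16 mice 5 to 8 stood apart on the second component, while EW16 mouse 4 and DW16 mice 8 and 9 lay with the other groups. In the narrow-range arrays the summed level of 7 endothelial markers (log2 of the sum) was 12.21 to 13.07, and it was 13.29 to 14.29 in the chow and 8-week groups. The 7 adipocyte markers summed to 14.88 to 15.96 there and to 16.13 to 16.56 in the chow and 8-week groups. Insr, the targeted receptor gene, had a mean of 9.15 to 9.48 in the D groups and 10.04 to 10.5 in the E groups, but no pairwise difference reached the threshold. The Irs1 groups overlapped. Apoe, with no functional allele in any mouse, had group means of 6.78 (EW16) to 7.74 (DW8). These lay above the range of the Y-linked probe sets given below, and the source of the Apoe signal was not tested. Stromal, macrophage and lymphocyte markers (8 genes each) summed to 13.87 to 14.95, 12.49 to 14.27 and 9.9 to 12.8 in the narrow-range arrays, and to 14.88 to 15.66, 12.85 to 14.59 and 11.08 to 13.64 in the chow and 8-week groups. The 11 probe sets of Y-linked genes, which female mice lack, spanned 2.94 to 6.26 and give the range of signal without transcript, of which 1 probe set held 5.67 to 6.26 and the other 10 at most 4.59. Of the 27 member probe sets, 7 had all 7 group means within 2.94 to 6.26 (Cdkn1b 1419497_at, Cdkn2a 1450140_a_at, Ccnd1 1417420_at, Ccnd2 1416124_at, Ccnd3 1438805_at, Cdk6 1460291_at and Rb1 1444400_at), and their differences are differences in signal that was not set apart from background.

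After 8 weeks of Western diet in D mice, 1 probe set of Cdkn1b was higher, with the means of both groups within the background range. Of the 27 member probe sets 1 was called, or 3.7%, against 1.08% of all probe sets in the comparison of DW8 with DC8. The called probe set, 1419497_at, was 2.16 log2 units higher in DW8. Beside it, 3 more member probe sets had an adjusted p under 0.05 (with the called one 4 of 27, against 4.8% of all probe sets), of which 1 was the other Cdkn1b probe set with a higher mean in DW8 and the remainder were Ccnd1 probe sets with a lower mean. The median difference of the members was -0.03, as against -0.02 over all probe sets.

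Cdkn1b encodes p27, which holds cyclin and CDK2 complexes inactive in resting cells. By 1419497_at the DW8 mice had 6.77, 6.12, 6.37, 4.84 and 6.45. The DC8 mice ran from 3.59 through a median of 3.87 to 4.57. The lowest DW8 mouse was above the highest DC8 mouse, and the difference of 2.16 ± 0.27 (SE) had an adjusted p of 0.0016. All 7 group means of this probe set lay within the range of the Y-linked probe sets and 6 of the 45 mice lay above it, so no fold is given. Every DW8 and EW8 mouse was above 4.59, the highest value of 10 of the 11 Y-linked probe sets. Leaving out each mouse in turn moved the difference between 1.99 and 2.48, and the probe set stayed called each time.

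The same probe set in E mice on Western diet for 8 weeks had a lowest value of 5.32, a median of 6.28 and a highest of 6.67. DW8 and EW8 thus covered much the same range, and both lay above every chow mouse of the series. With no chow E mice at 8 weeks, the diet difference could not be measured there. At 16 weeks the levels in Western-fed mice lay lower. EW16 ran from 3.66 through 4.01 to 5.10, below every EW8 mouse, and the difference of EW16 from EW8 of -1.90 ± 0.27 was called (adjusted p = 0.0057), with all EW16 mice and part of the EW8 mice inside the Y-linked range. This was 1 of the 27 member probe sets, or 3.7%, against 1.57% of all probe sets. Leaving out 1 mouse at a time moved the difference between -2.07 and -1.80. The call held only without EW8 mouse 6 or EW16 mouse 2, 3 or 4 and was lost in the other 10 fits.

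In EW16 the mice that stood apart differed from one another by this probe set. Mice 5 to 8 had 3.91, 3.66, 3.86 and 3.78. The narrow-range mice 1 to 3 had 4.12, 5.04 and 4.88, and mouse 4 had 5.10. Without mice 5 to 8 the difference from EW8 was -1.41 ± 0.26 (adjusted p = 0.0474), and without the narrow-range mice it was -2.13 ± 0.28 (adjusted p = 0.0116). All subsets lay below EW8.

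By its mean DW16 lay between the chow groups and DW8, with a lowest value of 4.01, a median of 4.60 and a highest of 6.07. Its difference from DC16 was 0.91 ± 0.28 (adjusted p = 0.0318) and that from DW8 was -1.37 ± 0.35 (adjusted p = 0.0145), neither called. DC16 held 3.80, 3.62, 4.03, 3.80 and 3.88, and EC16 held 4.09, 4.63, 3.80, 4.17 and 3.97. By group mean, all within the Y-linked range, the signal was EW8 6.19, DW8 6.11, DW16 4.74, EW16 4.29, EC16 4.13, DC8 3.95 and DC16 3.83. EW8 and DW8 did not differ beyond their spread, and the chow groups and EW16 overlapped. The diet difference in D mice at 16 weeks minus that at 8 weeks was -1.25 ± 0.41 (adjusted p = 0.0609), which was not called.

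**Figure D1:**
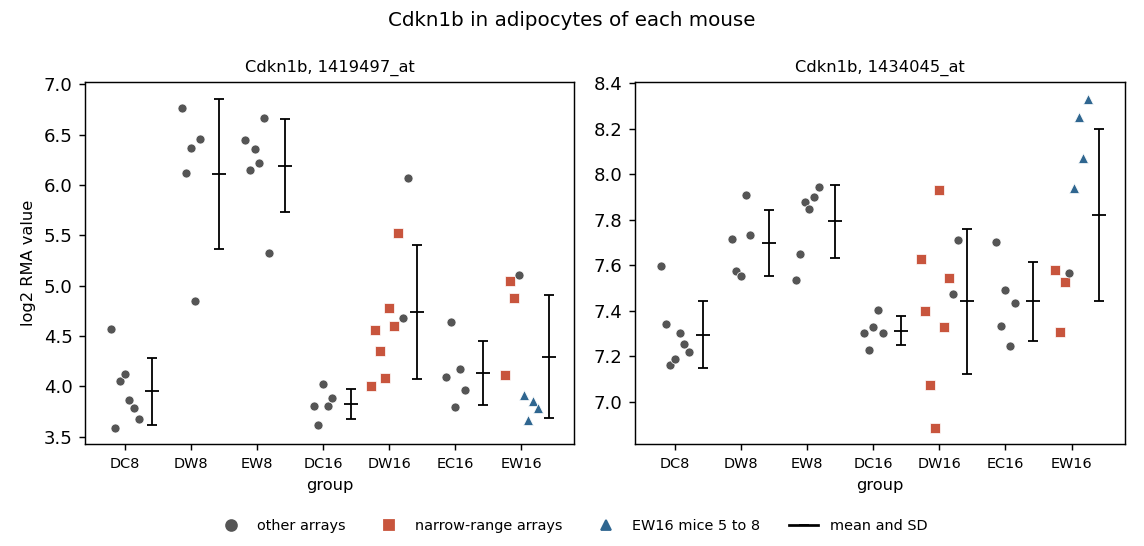
Cdkn1b in each mouse by its 2 probe sets, as log2 RMA values (y axis) in the 7 groups (x axis). Points are mice, squares are narrow-range arrays, triangles are EW16 mice 5 to 8, and bars are mean and SD. By 1419497_at all DW8 and EW8 mice lie above all chow mice, while by 1434045_at the groups are closer and EW16 mice 5 to 8 are among the highest.

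The other Cdkn1b probe set, 1434045_at, gave a smaller difference that was not called. DW8 mice had 7.72, 7.58, 7.55, 7.91 and 7.73 by it, and DC8 mice ran from 7.16 through 7.26 to 7.60. The groups overlapped through DC8 mouse 1 and the difference was 0.40 ± 0.09 (adjusted p = 0.0189). It was called when DC8 mouse 1 was left out, at 0.45. In EW16 mice 5 to 8 this probe set was high, 7.94 to 8.33, where 1419497_at was low. Over 35 mice outside the narrow-range arrays, after each group's mean was removed, the correlation of both probe sets was -0.33. Part of it came from EW16. There mouse 4 had 5.10 by 1419497_at and 7.57 by 1434045_at, and mice 5 to 8 had 3.66 to 3.91 and 7.94 to 8.33. The correlation without EW16 was not tested. Which parts of the transcript the probe sets read was not analysed here.

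The 250 bases before the start of Cdkn1b (RefSeq, GRCm38.p6, chr6:134920151-134920400, plus strand) are shown because this gene had the largest member difference at 8 weeks and is a known FOXO target. Capitals mark the only match to the FOXO core TGTTTA on either strand, whose first base is 17 bases before the start.
Cdkn1b: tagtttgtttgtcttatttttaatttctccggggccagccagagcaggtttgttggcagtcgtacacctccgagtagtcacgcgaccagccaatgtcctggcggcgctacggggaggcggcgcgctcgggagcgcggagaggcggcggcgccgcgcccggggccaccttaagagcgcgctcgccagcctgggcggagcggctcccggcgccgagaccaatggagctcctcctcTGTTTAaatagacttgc
Matches of these letters were in 12% of 32851 windows of 250 bases (3952 of them), so a match is common and is only a description. Of the members with an entry, Ccnd3 also held 1. The genes for FOXO factors themselves were not called, as for Foxo3, where the differences were 0.21 ± 0.10 in DW8, 0.70 ± 0.24 in DW16 and 0.71 ± 0.21 in EW16 against their chow groups.

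The genes whose group-centred values followed 1419497_at most closely over those 35 mice were Plekha5 (r = 0.77), Malat1 (r = 0.75) and Smg6 (r = 0.73). The mice share arrays and array-wide differences, so these are descriptions.

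The other CIP/KIP inhibitor among the members, Cdkn1a, encodes p21, the p53-responsive inhibitor. Its leading probe set 1424638_at was at 12.48 to 12.88 in DC8 and 12.39 to 12.80 in DW8, a difference of -0.06 ± 0.09. In DW16 the 7 narrow-range mice had 11.31 to 12.20 and mice 8 and 9 had 12.91 and 12.86, and the difference from DC16 was -0.56 ± 0.25 (adjusted p = 0.115). The probe set 1421679_a_at showed another pattern. In EW16 it was -0.75 ± 0.20 from EC16 (adjusted p = 0.0344) and in DW16 it was 0.13 ± 0.20 from DC16. The EW16 mice with the lowest values by it were mice 5, 6 and 7, at 9.42, 9.28 and 9.11.

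Of the INK4 inhibitors, Cdkn2a (p16 and p19ARF, barely expressed in young tissue) had a mean of 3.93 to 4.24 in all 7 groups, within the range of the Y-linked probe sets. Its largest diet difference was 0.17 ± 0.10 in DW16. Cdkn2c (p18, an inhibitor of CDK4 and CDK6) had a mean of 11.86 to 12.43. It differed by 0.21 ± 0.11 in DW8, -0.42 ± 0.21 in DW16 and -0.14 ± 0.23 in EW16 from the chow groups, and none was called. Its lowest values, 11.19 and 11.24, belonged to narrow-range arrays.

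At 16 weeks cyclin D2 was the only member called in a diet comparison, lower in E mice. Most of its probe sets had lower means in D mice too, without a call. In the comparison of EW16 with EC16, 2 of the 27 member probe sets were called, 7.41%, against 2.66% of all probe sets. Both were Ccnd2 probe sets and both were lower. The median of the members was -0.31, where that of all probe sets was 0.06. It was -0.17 after quantile normalization, -0.03 without the narrow-range arrays and -0.55 without EW16 mice 5 to 8, so its size depended on the scaling and on the arrays kept. In D mice at 16 weeks no member probe set was called by limma, whereas 3.43% of all were. There, 16 of 27 had an unadjusted p under 0.05 (37.9% of all probe sets did), 9 had an adjusted p under 0.05 (21.3% of all), and SAM, another method for array data, called 8 (17.8% of all). The median of the members was -0.49 and that of all was 0.04. After quantile normalization the median of the members was -0.14, and without the narrow-range arrays it turned to 0.11, with 18 of 27 higher.

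**Figure D2:**
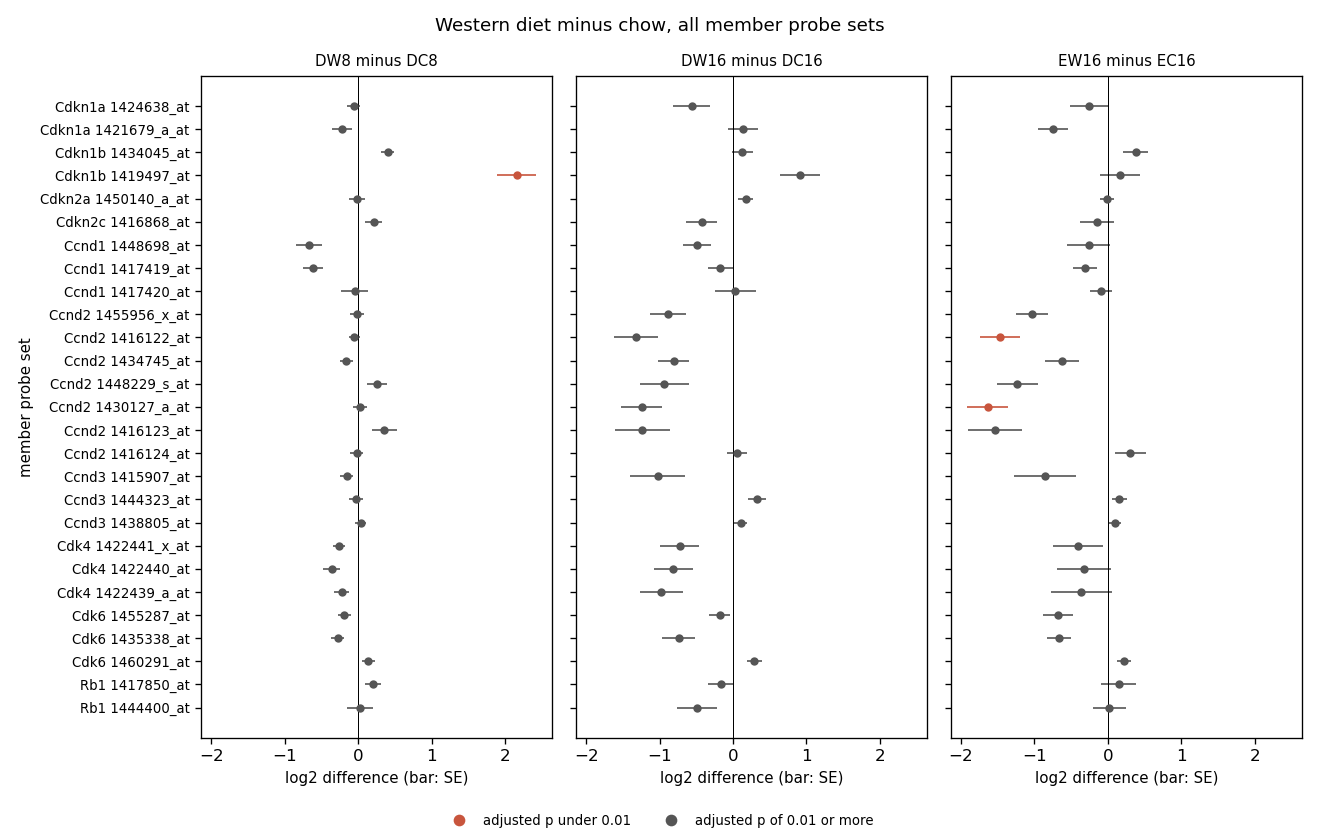
Log2 difference of Western diet minus chow (x axis, bars are SE) for each of the 27 member probe sets (y axis) in DW8 against DC8, DW16 against DC16 and EW16 against EC16. Red points have an adjusted p under 0.01: Cdkn1b 1419497_at at 2.16 in the first panel and Ccnd2 1416122_at at -1.47 and 1430127_a_at at -1.64 in the third.

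Cyclin D2 is a D-type cyclin that growth factors induce. By 1416122_at the EC16 mice had 12.82, 12.76, 12.69, 12.71 and 12.34. EW16 ran from 10.41 through 11.14 to 12.55. The groups overlapped only through EW16 mouse 4, and the difference was -1.47 ± 0.27 (adjusted p = 0.0059), 2.77-fold lower. By 1430127_a_at EC16 had 11.62, 11.57, 11.47, 11.14 and 10.66 and EW16 ran from 9.18 through 9.52 to 11.11, a difference of -1.64 ± 0.28 (adjusted p = 0.0047) or 3.11-fold lower.

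The EW16 arrays of both kinds that stood apart were low for Ccnd2. By 1416122_at the narrow-range mice had 10.83, 10.81 and 10.41, mice 5 to 8 had 11.19, 11.33, 11.31 and 11.10, and mouse 4 had 12.55. Without the narrow-range mice both probe sets were still called, at -1.16 ± 0.24 and -1.54 ± 0.33 (adjusted p = 0.0074 and 0.0084). Without mice 5 to 8 they were -1.51 and -1.39, with adjusted p values of 0.0365 and 0.0405. When single mice were left out, 1416122_at was called without EW16 mouse 3 or 4 and lost its call in the other 11 fits, and 1430127_a_at was called without EW16 mouse 1, 2, 3 or 4 or EC16 mouse 5 and lost it in the other 8. Leaving out EW16 mouse 4 gave -1.66 and -1.84, and 5 member probe sets were then called, with 7.05% of all.

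Markers of mesothelium, the cell layer that covers this fat, were also low in the EW16 arrays that stood apart. Their summed level (7 genes) was 9.15 to 9.23 in the narrow-range EW16 mice, 9.6 to 9.81 in mice 5 to 8, 10.65 in mouse 4 and 10.61 to 11.71 in EC16. In DW16 it was 8.72 to 10.04 in the narrow-range mice and 10.55 to 11.67 in mice 8 and 9. DC16 held 9.51 to 11.28, DC8 9.7 to 11.71 and EW8 9.45 to 11.52, each overlapping the narrow-range DW16 values. The median of the summed level was 10.84 in DC16 and 9.37 in the narrow-range DW16 mice. By 1416122_at Ccnd2 was 12.59 to 13.02 in DC16. The part of these markers, and of array range, in the Ccnd2 values was not tested.

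In D mice the same probe sets were lower in most DW16 mice. By 1416122_at the 7 narrow-range mice had 11.35, 10.71, 10.94, 11.01, 11.35, 10.96 and 11.35, and mice 8 and 9 had 12.56 and 12.77. The DC16 mice had 12.65, 12.59, 12.69, 13.02 and 12.86. The difference was -1.32 ± 0.30 (adjusted p = 0.0117), just outside the threshold. Mice 8 and 9, outside the narrow-range arrays, were at the chow level, and without the narrow-range arrays the difference was -0.10 ± 0.15. At 8 weeks the difference was -0.05 ± 0.08.

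By mean of 1416122_at the order was DC16 12.76, EC16 12.66, DC8 12.55, DW8 12.50, EW8 12.33, DW16 11.44 and EW16 11.19. The top 5 groups overlapped with each other in their values, and DW16 and EW16 overlapped with each other. EW16 was 1.13 ± 0.27 below EW8 (adjusted p = 0.0185), not called.

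**Figure D3:**
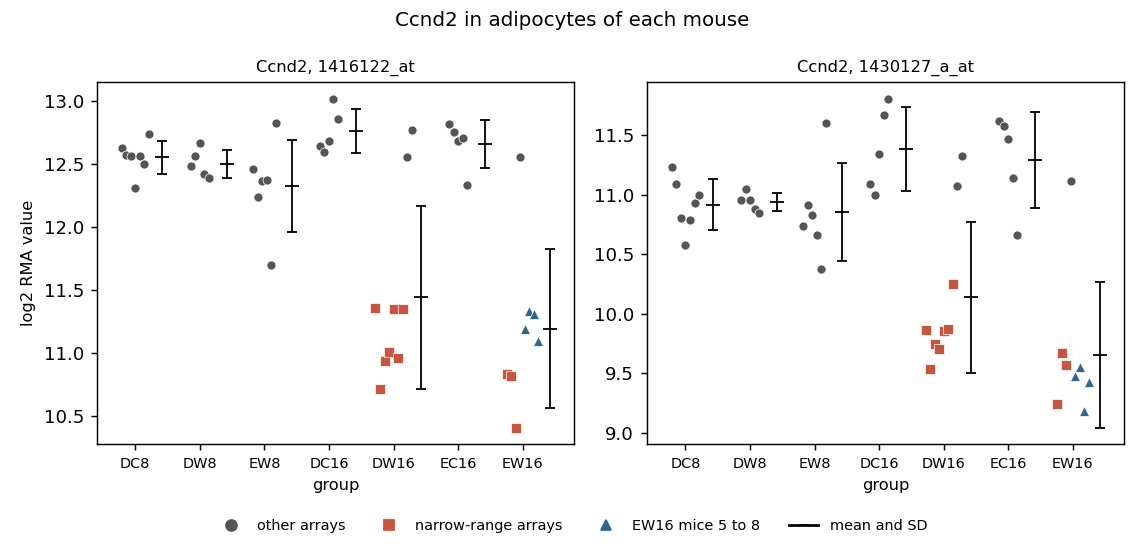
Ccnd2 in each mouse by the 2 called probe sets, as log2 RMA values (y axis) in the 7 groups (x axis), with squares for narrow-range arrays and triangles for EW16 mice 5 to 8. The low values belong to those arrays, while DW16 mice 8 and 9 and EW16 mouse 4 lie with the chow groups.

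Of the 7 Ccnd2 probe sets, 6 had a lower mean in EW16 than in EC16, from -0.62 to -1.64, and 1416124_at, at background, had a difference of 0.30 ± 0.21. The same 6 were lower in DW16, from -0.81 to -1.32. Over the 35 mice the 6 correlated with one another at 0.52 to 0.97. The genes nearest to 1416122_at were Spred1 (r = 0.86), Tpcn1 (r = 0.86) and Phip (r = 0.86), and those nearest to 1430127_a_at were Hdgf (r = 0.89), Nfic (r = 0.89) and Cp (r = 0.88).

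Cyclin D1, the D-type cyclin most often tied to mitogens, had lower means at 8 weeks that were not called. By 1448698_at DW8 had 7.50, 7.54, 7.41, 7.20 and 7.97 and DC8 ran from 7.81 through 8.12 to 8.76, a difference of -0.67 ± 0.17 (adjusted p = 0.0392). By 1417419_at it was -0.61 ± 0.13 (adjusted p = 0.0192), and by 1417420_at, at background, -0.05 ± 0.19. The DW8 mean by 1417419_at, 6.20, also lay within the range of the Y-linked probe sets. At 16 weeks 1448698_at differed by -0.49 ± 0.19 in DW16 and -0.26 ± 0.29 in EW16. Ccnd1 values in EW16 mice 5 to 8 were 8.21, 8.41, 8.44 and 8.77, of which the highest lay above every EC16 mouse.

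The levels of Cdk4, the kinase partner of D cyclins, and of Ccnd3 followed the narrow-range arrays. By Cdk4 1422441_x_at the EW16 narrow-range mice had 7.63, 7.69 and 7.33, mouse 4 had 8.46, and mice 5 to 8 had 8.92, 9.00, 9.31 and 9.34. EC16 held 8.55 to 9.17, so the narrow-range mice lay below EC16 and mice 7 and 8 above it. In DW16 the narrow-range mice had 7.26 to 8.05 and mice 8 and 9 had 8.53 and 8.70. DC16 held 8.79, 8.90, 8.72, 7.61 and 8.48, of which mouse 4 lay among the narrow-range values. The differences were -0.73 ± 0.27 in DW16 (adjusted p = 0.0635) and -0.41 ± 0.34 in EW16 (adjusted p = 0.441). Without the narrow-range arrays they were 0.11 ± 0.32 and 0.14 ± 0.17. The other Cdk4 probe sets, 1422440_at and 1422439_a_at, differed by -0.82 ± 0.27 and -0.98 ± 0.29 in DW16 (adjusted p = 0.0406 and 0.0305). At 8 weeks the difference by 1422441_x_at was -0.26 ± 0.08 (adjusted p = 0.0914). The endothelial and adipocyte marker sums given above were low in the same arrays, and their part in the Cdk4 values was not tested.

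The 250 bases before the Cdk4 start (RefSeq, GRCm38.p6, chr10:127063285-127063534, plus strand) are given because the window is dense in the E-box CACGTG, which MYC binds. Capitals mark the 4 matches, whose first bases are 172, 118, 98 and 11 bases before the start.
Cdk4: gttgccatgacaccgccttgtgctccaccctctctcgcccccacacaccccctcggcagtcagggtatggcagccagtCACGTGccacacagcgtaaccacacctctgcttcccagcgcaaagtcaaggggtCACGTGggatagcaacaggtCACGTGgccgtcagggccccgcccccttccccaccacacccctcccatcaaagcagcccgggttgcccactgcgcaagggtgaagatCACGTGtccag
At least 1 match was in 6.02% of the 32851 windows, 1978 of them, and among members Cdk6 also held 1. The share of windows with 4 matches was not counted. Myc itself was not called in any diet comparison. It differed by -1.16 ± 0.32 in DW16 (adjusted p = 0.0219), -0.69 ± 0.34 in EW16 (adjusted p = 0.206) and 0.13 ± 0.10 in DW8. A link of Myc to the Cdk4 values was not tested. The E2F sites TTTCCCGC and TTTGGCGC were in 0.895% and 0.417% of windows, and 1 member window, of Cdkn2a, held the first.

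Ccnd3 (cyclin D3, which supports adipocyte differentiation) had by 1415907_at 7.72 to 8.04 in the EW16 narrow-range mice and 9.65 to 9.90 in the other EW16 mice. EC16 had 9.93, 10.19, 9.96, 9.78 and 9.77. DW16 narrow-range mice had 7.90 to 8.58 and mice 8 and 9 had 9.94 and 10.37. The differences from chow were -1.02 ± 0.38 in DW16 (adjusted p = 0.0621) and -0.86 ± 0.42 in EW16 (adjusted p = 0.198). By 1444323_at the DW16 difference was 0.33 ± 0.12 (adjusted p = 0.0577), and 1438805_at was at background.

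**Figure D4:**
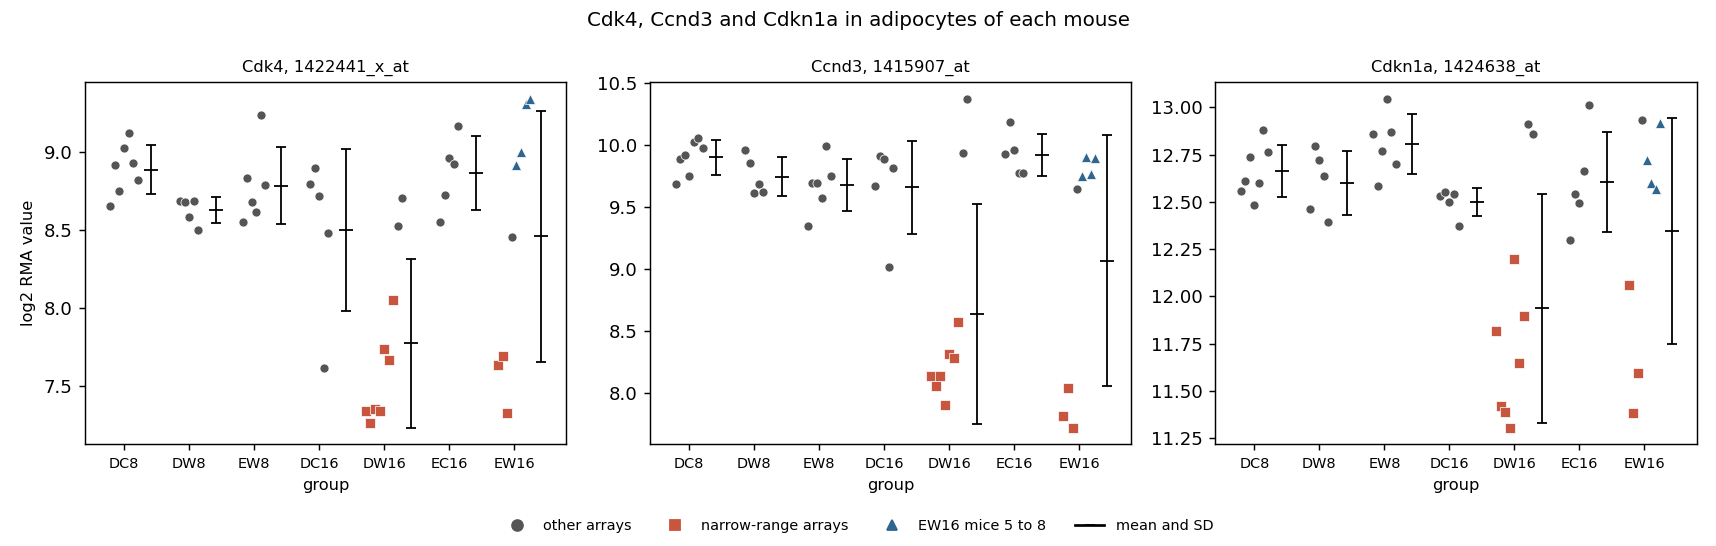
Cdk4, Ccnd3 and Cdkn1a in each mouse by 1 probe set each, as log2 RMA values (y axis) in the 7 groups (x axis), with squares for narrow-range arrays, triangles for EW16 mice 5 to 8 and bars for mean and SD. The squares are the lowest values in DW16 and EW16, and the circles in those groups lie near the chow groups.

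Cdk6, the other D-cyclin kinase, had by 1455287_at 8.67, 9.12, 8.16, 8.36 and 8.36 in EC16, and EW16 ran from 7.33 through 7.83 to 8.40. The difference was -0.69 ± 0.21 (adjusted p = 0.0521), and by 1435338_at it was -0.67 ± 0.16 (adjusted p = 0.0226). The groups overlapped, and EW16 mice 5 to 8 held 7.33 to 7.81. Without the narrow-range arrays the difference by 1455287_at was -0.90 ± 0.18 and was called (adjusted p = 0.0069). In DW16 it differed by -0.18 ± 0.14, and 1435338_at by -0.74 ± 0.23. The third probe set, 1460291_at, at a mean of 4.60 to 4.89, was within the range of the Y-linked probe sets.

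Rb1, which restrains E2F until the kinases act, had a mean of 10.59 to 10.98 by 1417850_at. Its diet differences were 0.20 ± 0.11, -0.16 ± 0.18 and 0.15 ± 0.24 in DW8, DW16 and EW16. EW16 mice 5 to 8 had 11.40, 11.50, 11.51 and 11.21, above every EC16 mouse, and without the narrow-range arrays the difference from EC16 was 0.51 ± 0.11 and was called (adjusted p = 0.0074). The other probe set, 1444400_at, at background, differed by 0.02 ± 0.22 in EW16.

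The genotype comparisons held no called member by limma. In DW8 against EW8 0% of all probe sets were called, and 1 member had an unadjusted p under 0.05 (4.13% of all probe sets did). In DW16 against EW16 it was 0% again, with 8 such members (14.6% of all probe sets). In DC16 against EC16 0.00222% of all probe sets were called and 2 members had an unadjusted p under 0.05 (6.27% of all). The diet effect in D mice minus that in E mice at 16 weeks gave 0% and 1 such member (6.31% of all). None of these shows that the genotypes were alike.

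With time on the diet, no member was called outside EW16 against EW8. In DC16 against DC8 0% of all probe sets were called and 3 members had an unadjusted p under 0.05 (8.74% of all). In DW16 against DW8 5.41% of all were called, and 17 members had an unadjusted and 11 an adjusted p under 0.05, where 39.6% and 23% of all probe sets did. The lowest of these adjusted p values was 0.014, for Ccnd3 1444323_at at 0.47 ± 0.12. The diet effect in D mice at 16 weeks minus that at 8 weeks was called in 0.00444% of all probe sets and in no member. There 10 members had an unadjusted and 3 an adjusted p under 0.05 (27.7% and 6.46% of all probe sets), and all 3 were Ccnd2 probe sets, at -1.27, -1.27 and -1.59.

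Of the other genes of the pathway, Cdkn1c fell in every diet comparison. Cdkn1c, the third CIP/KIP inhibitor, encodes p57 and is an imprinted gene. Its differences were -0.88 ± 0.16 in DW8, -1.40 ± 0.28 in DW16 and -1.59 ± 0.18 in EW16 (adjusted p = 0.0085, 0.0078 and 0.0014). In EW16 it was called in all 13 fits that left out 1 mouse, while in DW8 it was called in 3 of 12 and in DW16 in 2 of 14. Without the narrow-range arrays it was -1.43 ± 0.17 in EW16 (adjusted p = 0.0013) and -1.01 ± 0.38 in DW16 (adjusted p = 0.597). Of the 4 other CDK inhibitors, 1 was called lower in each of DW8 and DW16 and 2 in EW16, the other being Cdkn2d (p19 of the INK4 family) at -1.001 ± 0.18, which stayed called in 6 of 13 fits without 1 mouse. Over all probe sets 1.08%, 3.43% and 2.66% were called in DW8, DW16 and EW16 against chow.

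The G1/S cyclins, kinases and their regulators (13 genes) had 1 called lower in EW16. It was Fbxo31, a ubiquitin ligase adaptor for cyclin D1 and not an activator, at -1.10 ± 0.15 (10 of 13 fits without 1 mouse). Of 2 pocket proteins, Rbl2 (p130, the pocket protein of resting cells) was called lower in DW16 at -1.87 ± 0.39 and had -1.23 ± 0.42 in EW16. The Rbl2 call held in 2 of 14 fits without 1 mouse, and without the narrow-range arrays the difference was -0.47 ± 0.25. Of 14 measured E2F targets of DNA replication 1 was called, Mcm3, a subunit of the replicative helicase, at -1.04 ± 0.21 in EW16 (1 of 13 fits without 1 mouse), and Mcm6 had -1.17 ± 0.26 in DW16 (adjusted p = 0.0107). No E2F or DP factor (10 genes), no measured S, G2 or M gene (11), no p53 gene or target (12) and no FOXO or growth-signal gene (10) was called in the diet comparisons. Gadd45a, which p53 and FOXO factors induce, had the lowest adjusted p of these, with 0.59 ± 0.12 in DW8 (adjusted p = 0.0136) and 0.93 ± 0.20 in EW16 (adjusted p = 0.0118). Over all probe sets 1.08% were called in DW8, 3.43% in DW16 and 2.66% in EW16. Against these shares, 1 call or none among 10 to 14 genes says little about a list.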

How the data were processed

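Adipocyte RNA of 45 mice was hybridised to Affymetrix MG430-2.0 arrays, 1 per mouse. Per the study's methods the arrays were scanned with global scaling and the authors normalized them with RMA express. The deposited values are therefore log2 expression values per probe set. Version numbers and scan batches are not given in the sources used here. Arrays have no read depth, so the number of mice limits the precision. The platform annotation gave 1 symbol to 34945 probe sets, several to 932 and none to 9160.

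Each comparison was fitted with limma 3.58.1 in R 4.3.3 (lmFit and eBayes) on the groups compared, without a filter, after which p-values were adjusted by Benjamini-Hochberg over all 45037 probe sets. The study's threshold of a 1% false discovery rate was kept. Code was tested on simulated data first. SAM was written anew with 100 label permutations.

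The members, gene lists, motifs and tests were chosen with earlier results of these data known. Named genes were the members with all their probe sets, from each list the 2 genes of smallest adjusted p over the diet comparisons, the 3 nearest genes of each called member probe set, and the targeted genes. Pathway genes were read by their probe set of the highest mean. Alternatives covered the fit, normalization, filter, threshold, arrays left out and replicate numbers. Figures were drawn with matplotlib 3.10.9.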

Additional observations from a re-analysis of the deposited data

Results flagged for a closer look

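Some members had 1 mouse far from the rest of its group, where the gap to the nearest mouse took up an unusual share of the group's range. Of 91 combinations of probe set and group looked at (the leading and the called member probe sets), 7 met this criterion, and chance flags about 1 in 20. Ccnd2 in EW16 mouse 4 was high by 3 probe sets, at 12.55 (1416122_at), 11.11 (1430127_a_at) and 12.5 (1455956_x_at), which is the mouse whose array lay with the other groups. Ccnd2 1416122_at was low in EC16 mouse 5, at 12.34. DC16 mouse 4 was low for Ccnd3 1415907_at, at 9.01, and for Rb1 1417850_at, at 10.13. Cdkn1b 1434045_at was high in DC8 mouse 1, at 7.59. No member moved in every mouse one way in one diet comparison and in every mouse the opposite way in another.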

How the results depend on the processing

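Signs were followed for the leading and called member probe sets in the diet comparisons and for the called one in EW16 against EW8. No difference changed sign where it was called. Differences not called changed sign in 12 (DW8), 15 (DW16) and 24 (EW16) combinations of probe set and alternative in the comparisons with chow. The number of called member probe sets moved more, and arrays that stand apart or 1 mouse often decided it. Beside each count stands, in parentheses, the share of all probe sets called under that setting. For DW8 against DC8 (1 called) it was 2 with array weights (2.87%), 0 among probe sets above the median level (2.18%), where 1419497_at was left out, and 4 at an adjusted p of 0.05 (4.8%). For DW16 against DC16 (0 called) it was 6 with 1 fit over all groups (17.1%), 2 with a trended robust fit (4.71%), 14 with array weights (30.5%), 2 with arrays centred on the median (4.45%), 2 among probe sets above the median level (11.4%), 9 at an adjusted p of 0.05 (21.3%) and 12 without DW16 mice 8 and 9 (22.3%). For EW16 against EC16 (2 called) it was 7 with 1 fit over all groups (7.29%), 8 with array weights (16.6%), 4 among probe sets above the median level (6.15%), 7 at an adjusted p of 0.05 (9.26%), 4 without the narrow-range arrays (7.02%), 0 with the SD of the array as a covariate (2.7%) and 0 without EW16 mice 5 to 8 (0.00222%). For DW16 against EW16 (0 called) it was 7 with array weights (14.2%). For DW16 against DW8 (0 called) it was 6 with 1 fit over all groups (15.5%), 1 with a trended robust fit (6.43%), 14 with array weights (27.8%), 2 after quantile normalization (5.5%), 1 among probe sets above the median level (15.5%), 11 at an adjusted p of 0.05 (23%) and 15 without DW16 mice 8 and 9 (25.2%). For EW16 against EW8 (1 called) it was 6 with 1 fit over all groups (9.1%), 2 with a trended robust fit (1.42%), 7 with array weights (14.6%), 2 among probe sets above the median level (4.27%), 6 at an adjusted p of 0.05 (9.99%), 0 without the narrow-range arrays (0.02%) and 0 without EW16 mice 5 to 8 (0%). For the diet effect at 16 minus 8 weeks in D mice (0 called) it was 13 with array weights (19.7%), 3 at an adjusted p of 0.05 (6.46%) and 10 without DW16 mice 8 and 9 (14.4%). For the diet effect in D minus E mice (0 called) it was 3 with array weights (8.71%). The cause of these moves was not tested.

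With 1 mouse left out the count ran from 1 to 2 in DW8 against DC8, 0 to 7 in DW16 against DC16, 0 to 5 in EW16 against EC16, 0 to 11 in DW16 against DW8, 0 to 6 in EW16 against EW8 and 0 to 4 for the diet effect at 16 minus 8 weeks. The 2 came without DC8 mouse 1 (2.59%) or 6 (0.577%), the 7 and 11 without DW16 mouse 9 (11.6% and 12.2%), the 5 and 6 without EW16 mouse 4 (7.05% and 7.33%), and the 4 without DW16 mouse 8 (6.74%) or 9 (3.53%). Limma and SAM shared 1 called member at 8 weeks and 0 at 16 weeks in the D diet comparisons.

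The labels did not say whether replicate numbers paired the mice. Correlations of same-numbered deviations ran from -0.437 to 0.532, both in DW16 against EW16, which hold the arrays that stood apart, so they do not settle it. With the replicate number as a block the counts were 0 in DW8 against DC8 (Cdkn1b 1419497_at at 2.07, adjusted p = 0.0129), 12 in DW16 against DC16 (17.3%), 0 in EW16 against EC16, 15 in DW16 against DW8 (17.9%), 0 in EW16 against EW8 and 10 for the diet effect at 16 minus 8 weeks (11.4%), where the shares of the 0 counts were 0.0488% at 8 weeks and 0%. The block kept only mice with shared numbers. The same mice fitted unpaired, an alternative chosen after seeing the data like those without EW16 mice 5 to 8 and DW16 mice 8 and 9, gave 0, 13 (19.5%), 0, 16 (23%), 0 and 11 (12.9%), the 0 counts with at most 0.0444% of all.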
